A study of Mus musculus with 8 samples.

Results

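The regions described here were called only in cells whose ALKBH5 lacks an intrinsically disordered region (del-cIDR), and they are broader than most regions of that kind. They were chosen from 4 lists of eCLIP peaks. Peaks that shared at least 1 bp were merged, and a region was kept if it held a peak in both del-cIDR lists, held none in either full-length list and measured 800 bp or more. This gave 1028 broader del-cIDR-only regions among 43029 merged regions. Del-cIDR-only regions of any width numbered 7609, so 6581 were narrower than 800 bp. The presence of peaks in the del-cIDR lists, their absence from the full-length lists and the width are therefore the choice itself and are described below without a test. A region without a listed full-length peak is not shown to be free of full-length ALKBH5.

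The cells were E14TG2a, a line of mouse embryonic stem cells, grown for both genotypes with LIF, the MEK inhibitor PD0325901 and the GSK3 inhibitor CHIR99021, which keep such cells pluripotent. In the Alkbh5 del-cIDR cells ALKBH5 lacks the region labelled cIDR, read here as its C-terminal disordered region, and the WT cells carry endogenous full-length (FL) ALKBH5. Cells of both genotypes were crosslinked with ultraviolet light and their nuclei isolated. Each genotype had 2 replicates, each with an immunoprecipitated and an input library (8 samples), and the peak lists of the 4 immunoprecipitated libraries were analysed. The labels do not say how many clones the edited line stands for, or whether replicates were separate cultures, so spreads below may be technical. The del-cIDR lists held 17584 and 18841 peaks and the full-length lists 19892 and 16636. Read numbers are unknown, and fewer reads, less RNA and less binding cannot be told apart where a list holds no peak.

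ALKBH5 is a nuclear dioxygenase that removes the methyl group of N6-methyladenosine, a mark laid on RNA by the METTL3-METTL14 complex and frequent in long exons and near stop codons of mRNA. Disordered regions lack a stable fold and can take part in weak contacts with RNA and proteins. In eCLIP, ultraviolet light joins a protein to the RNA it touches, and the joined RNA is immunoprecipitated and sequenced. A narrow peak marks crosslinking at a short stretch of RNA, and a broad peak marks signal along a longer one. Positions are in GRCm39 and peaks carry no strand. No annotation or genome of that build was used here, so regions are given by position, and genes, transcript ends and sequence were not analysed here.

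Most of the regions were under 1215 bp wide and below 4-fold enrichment in both lists. Their width ranged from 800 to 4108 bp with a median of 1016.5 bp and quartiles of 890 and 1215 bp. Of the 1028 regions, 541 measured at least 1000 bp, 133 at least 1500 bp, 32 at least 2000 bp and 4 at least 3000 bp. Just inside the limit, regions of 800 bp lay at chr1:132046032-132046831, with 2.77-fold and 3.54-fold enrichment in del-cIDR replicates 1 and 2, and at chr7:120532567-120533366, with 4.05-fold and 3.08-fold. Just outside it, 5 regions measured 799 bp. Among these, the region at chr10:128149078-128149876 had 2.90-fold and 2.23-fold enrichment, and that at chr12:24759116-24759914 had 3.19-fold and 2.97-fold. The regions on the 2 sides of the limit thus had overlapping enrichments.

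The width of a region was often the work of 1 list. A single peak of at least 800 bp was present in both del-cIDR lists at 301 regions (29.3%), in replicate 1 alone at 177 and in replicate 2 alone at 367. At 183 regions (17.8%) no single peak reached 800 bp, and the width came from staggered peaks. The widest peak of a region had a median of 770.5 bp in replicate 1 and 881 bp in replicate 2. Each list held exactly 1 peak at 712 regions (69.3%), while 172 regions held more peaks in replicate 1 and 101 more in replicate 2. The bases under peaks of both lists made up a median of 69.0% of the region, and over 80% at 351 regions. The strongest summits of the 2 lists lay a median of 56.0 bp apart and within 50 bp of each other at 499 regions (48.5%). At nearly 50% of the regions the replicates thus had their strongest signal close to the same base. Applied to del-cIDR replicate 1 and both full-length lists, without del-cIDR replicate 2, the rule gave 507 regions, against 737 without del-cIDR replicate 1, and either set can hold regions outside the 1028.

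**Figure D1:**
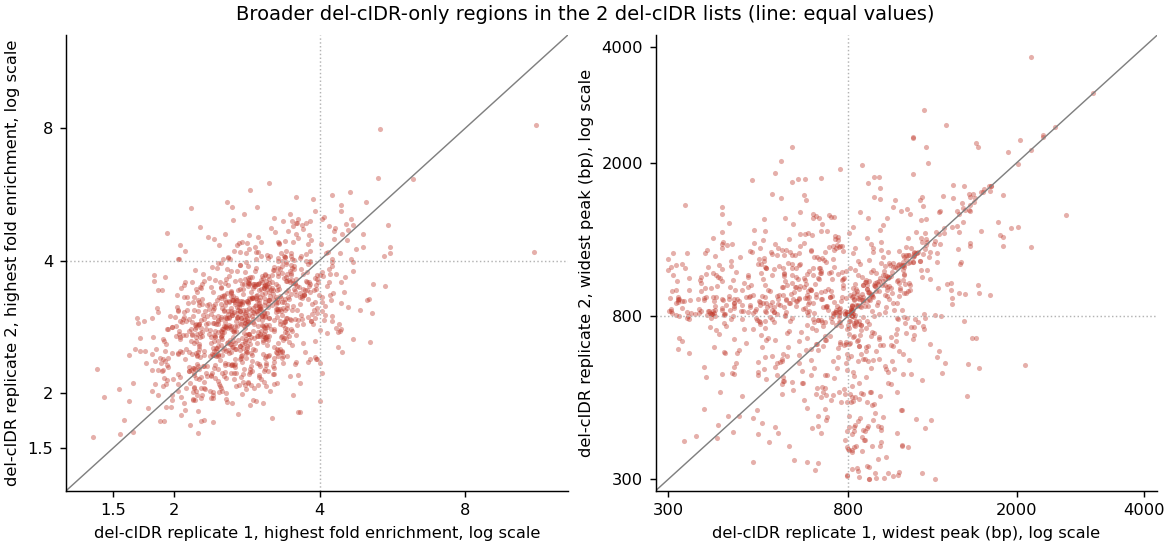
Each point is 1 of the 1028 broader del-cIDR-only regions, with del-cIDR replicate 1 on the horizontal and replicate 2 on the vertical axis, both log scales. The left panel gives the highest fold enrichment (dotted lines at 4-fold) and the right panel the widest peak in bp (dotted lines at 800 bp), where 301 regions lie in the upper right corner.

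Enrichment was low, and the median ranks lay above the middle of the lists. Fold enrichment is the authors' own value for each peak over the background of the peak caller and describes peaks within a list. The highest peak of a region had a median of 2.85-fold in replicate 1 (1.36-fold to 11.2-fold) and 2.97-fold in replicate 2 (1.59-fold to 8.13-fold). At least 4-fold enrichment in both lists was reached by 35 regions (3.40%), and in neither list by 862 (83.9%). Narrower del-cIDR-only regions had medians of 3.27-fold and 3.34-fold, with 28.7% at 4-fold or more in both lists. Broader full-length-only regions, of which there were 2346, had medians of 5.20-fold and 4.28-fold in the full-length lists, with 51.6% at that level. All peaks of the full-length lists had medians of 3.80-fold and 3.60-fold, against 3.17-fold and 3.16-fold in the del-cIDR lists. Broader regions of all 4 lists, numbering 423, had 2.43-fold and 2.50-fold in the del-cIDR lists. By median enrichment the broader del-cIDR-only regions lay between the broader shared and the narrower del-cIDR-only regions in both del-cIDR replicates. These differences between sets were not tested, since the sets were made from the same peaks.

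Ranks by −log10 q give the order of peaks within a list. The best rank of a region had a median of 6365.5 in replicate 1 and 5943.5 in replicate 2, against 7929 and 8100.0 for narrower del-cIDR-only regions. Among the 500 highest ranked peaks of their list, of 17584 and 18841 peaks, were 5 regions in replicate 1 (0.49%) and 4 in replicate 2 (0.39%). Of the 6581 narrower del-cIDR-only regions 59 and 54 were, and of the 423 broader regions of all 4 lists 10 and 12. Ranks from 2001 to 10000 held 327 plus 380 of the 1028 regions in replicate 1 and 323 plus 388 in replicate 2. Over the 1028 regions the values of the 2 replicates had a Spearman correlation of 0.69 for −log10 q and 0.44 for fold enrichment. These are descriptions over regions that share both libraries, and they carry no p. Width and the lower of both enrichments had a Spearman correlation of 0.12. The 32 regions of 2000 bp or more had median enrichments of 3.02-fold and 3.36-fold, against 2.82-fold and 2.92-fold for the 287 regions under 900 bp. Median −log10 q differed more, at 38.1 and 33.4 against 11.8 and 13.7.

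The broadest region spanned chr12:109688645-109692752, 4108 bp. It held 2 peaks in del-cIDR replicate 1, the wider of 2169 bp, and a single peak of 3776 bp in replicate 2, with 3.14-fold and 2.97-fold enrichment. The nearest full-length peak lay 60547 bp away. The next, at chr17:34148690-34152394, measured 3705 bp and held 4 peaks in replicate 1 and 2 in replicate 2, with 5.58-fold and 4.16-fold enrichment. A full-length peak lay 3532 bp from it. Both regions were thus built from different numbers of peaks in the 2 lists, and one was remote from full-length signal while the other was near it.

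A region at chr7:3266705-3269752, 3048 bp, was nearly the same in both lists, with single peaks of 3039 and 3042 bp that covered 99.5% of it jointly. It had 3.08-fold and 3.52-fold enrichment and ranks of 208 and 190, and the nearest full-length peak lay 34779 bp away. On chromosome 14 a region from 115281195 to 115284227, 3033 bp, held 2 peaks in each list with 3.50-fold and 2.76-fold enrichment and no full-length peak within 68963 bp. These were the only 4 regions of at least 3000 bp, and 3 of them had no full-length peak nearer than 34779 bp.

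The other 6 of the 10 broadest measured 2463 to 2753 bp. A region at chr16:20218469-20221221 had 3.47-fold and 3.80-fold enrichment, with 3 peaks in replicate 1 and 1 of 2751 bp in replicate 2. One at chr10:81199570-81202302 had 4.28-fold and 4.66-fold, and lay 305 bp from a full-length peak. A region at chr3:95566294-95568934 had 2.53-fold and 2.80-fold enrichment and the nearest full-length peak 80219 bp away. On chromosome 7, the region from 4744209 to 4746719 had 3.04-fold and 3.57-fold and lay 1057 bp from a full-length peak. The region at chr11:115476671-115479133 had 2.91-fold and 3.53-fold and lay 114 bp from one. The nearest full-length peak thus lay from 114 to 80219 bp away among the 10 broadest regions.

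The last of these, at chr19:5845869-5848348, was also the best ranked of all 1028. It held 1 peak of 2470 bp in del-cIDR replicate 1 and 1 of 2480 bp in replicate 2, with the same strongest base. Its −log10 q of 4237 and 4724 gave ranks of 30 and 28, although its enrichment was 3.01-fold and 3.31-fold. It lay 1132 bp from a region of all 4 lists, from 5849481 to 5851284. The 3048 bp region of chromosome 7, given above, was next by mean rank. After it came a region at chr17:37313672-37314896, with 2.95-fold and 3.33-fold enrichment and ranks of 247 and 228. One at chr14:55134649-55136389 followed, with 4.05-fold and 4.96-fold and ranks of 362 and 291. The 4 best ranked regions thus measured 1225 to 3048 bp, and none exceeded 4.96-fold enrichment in either list.

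The remaining 6 of the 10 best ranked were single peaks in both lists. The region at chr4:134652777-134654342 had 3.18-fold and 2.79-fold enrichment, and that at chr11:116740674-116741800 had 4.70-fold and 4.82-fold. Regions at chr6:51437956-51439105, at chr7:4754608-4755920 and at chr11:79884077-79885090 and at chr11:23206169-23207080 had 2.98-fold to 3.83-fold in replicate 1 and 3.02-fold to 4.91-fold in replicate 2. In all 10 best ranked regions at least 85.7% of the width was under peaks of both lists, above the median of all 1028 regions.

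The highest enrichment, taken as the lower of both replicates, was 8.13-fold at chr8:121824513-121825590, with 11.2-fold in del-cIDR replicate 1. A region at chr7:79074032-79076401, 2370 bp wide, followed with 6.24-fold and 6.13-fold. The others of the 5 most enriched were at chr7:109670962-109671815, with 5.32-fold and 7.95-fold, and at chr7:26887719-26888715, with 5.27-fold and 6.17-fold, and at chr18:24637953-24638848, with 5.00-fold and 5.44-fold. None of these 5 was among the 10 broadest or the 10 best ranked regions.

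The regions were unevenly spread over chromosomes. Chromosome 11 held 108 of them (10.5%), chromosome 2 held 100 (9.73%) and chromosome 7 held 89 (8.66%), while chromosomes 1, 13 and 18 held 23, 16 and 13. None lay on the Y or the mitochondrial chromosome. Relative to the protein-coding genes that RefSeq lists for each chromosome (GRCm38.p6, used for gene numbers and not for positions), there were 4.75 regions per 100 genes over the numbered and X chromosomes. This ratio was 6.92 on chromosome 16, 6.72 on chromosome 8, 6.71 on chromosome 11, 6.38 on chromosome 19 and 6.33 on chromosome 17, against 1.91 on chromosome 1, 1.93 on chromosome 13, 2.48 on the X chromosome and 2.55 on chromosome 18. For broader full-length-only regions the ratio was 10.8 over the numbered and X chromosomes. It was 11.9 on chromosome 16, 15.0 on chromosome 8, 7.96 on chromosome 11, 6.95 on chromosome 19 and 10.0 on chromosome 17. Chromosomes 16 and 8 were thus above the total in both sets. The number of broader del-cIDR-only regions and the number of genes had a Spearman correlation of 0.70 over these 20 chromosomes, and that of narrower del-cIDR-only regions 0.91. It was 0.80 for broader full-length-only regions and 0.73 for broader regions of all 4 lists. These are descriptions over chromosomes that share the same libraries, and differences between the sets were not tested.

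**Figure D2:**
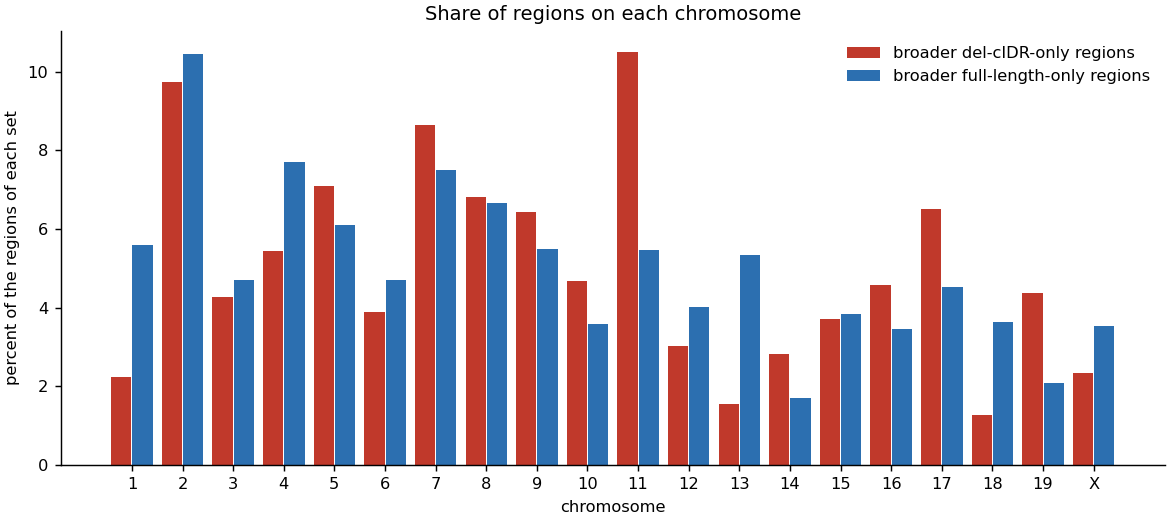
Bars give the percent of the 1028 broader del-cIDR-only regions (red) and of the 2346 broader full-length-only regions (blue) on each chromosome. Chromosome 11 held 10.5% of the first set and 5.46% of the second, and chromosome 13 held 1.56% and 5.33%.

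Chromosomes also differed in how many del-cIDR-only regions were broad. Over the numbered and X chromosomes 13.5% of del-cIDR-only regions reached 800 bp. The share was highest on chromosome 11, at 17.5%, against 5.49% on chromosome 1, 6.50% on chromosome 13 and 6.74% on chromosome 18. Set against broader full-length-only regions, there were 0.918 broader del-cIDR-only regions for each one on chromosome 19, 0.844 on chromosome 11 and 0.725 on chromosome 14, against 0.128 on chromosome 13, 0.153 on chromosome 18 and 0.176 on chromosome 1. The ratio over the 20 chromosomes was 0.438. Single peaks of 800 bp or more made up 3.95% and 5.15% of the del-cIDR lists, against 15.7% and 8.55% of the full-length lists. The same width limit thus fell on lists of unlike peak width, which bears on this ratio. These shares over regions were not tested, as the regions of a chromosome share the same 4 libraries.

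Many of the regions had another nearby. The next broader del-cIDR-only region lay within 1 kb at 114 regions, within 5 kb at 263 (25.6%) and within 100 kb at 572 (55.6%), and 456 stood alone at that distance. Joined at 100 kb, the 572 regions formed 201 groups, of which 18 held 5 or more. In each of these 18 groups both del-cIDR lists held more peaks over the span than either full-length list, a description of spans that the rule itself had placed. These counts include the peaks of the regions themselves, which the rule requires in del-cIDR lists and bars from full-length lists. The choice itself thus favours this outcome, and other spans were not counted for comparison. Narrower del-cIDR-only regions and broader full-length-only regions, of which there are more, had a neighbour of their own kind within 100 kb at 65.8% and 69.9%.

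One of 2 groups with the most regions lay on chromosome 11, with 9 regions in chr11:120501918-120686961. The broadest of them, from 120501918 to 120504119, measured 2202 bp and had 2.78-fold and 3.36-fold enrichment. A run of 3 adjoining regions from 120683421 to 120686961 had 2.62-fold to 3.75-fold in replicate 1 and 2.09-fold to 4.88-fold in replicate 2. The remaining 5, from 120531677 to 120617897, had 1.84-fold to 3.39-fold and 2.22-fold to 3.12-fold. The span held 35 and 40 del-cIDR peaks and 10 and 9 full-length peaks. Full-length peaks thus lay within the span, and regions of all 4 lists were among them, at chr11:120515891-120518918 and chr11:120522841-120523989.

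The other group of 9 lay on chromosome 8 within 73.1 kb, from 70712485 to 70785574, and was nearly free of full-length peaks. It held 18 and 12 del-cIDR peaks, against 1 full-length peak in replicate 1 and 0 in replicate 2. Its regions measured 843 to 1840 bp. The most enriched, from 70735759 to 70736824, had 3.28-fold and 3.99-fold, and the widest, from 70737306 to 70739145, had 2.69-fold and 2.92-fold. The other 7 had 1.81-fold to 3.06-fold in replicate 1 and 1.62-fold to 3.01-fold in replicate 2.

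Next by number of regions was a group of 8 on chromosome 6, spread over 317 kb, from 124834362 to 125151307. It held 37 and 33 del-cIDR peaks against 20 and 13 full-length peaks. A denser group, on chromosome 7, held 7 regions within 41.0 kb, from 79074032 to 79115051, with 18 and 14 del-cIDR peaks against 0 and 1 full-length peak. It began with the 2370 bp region of 6.24-fold and 6.13-fold enrichment given above, and the 6 others had 1.65-fold to 2.68-fold in replicate 1 and 1.64-fold to 3.22-fold in replicate 2. Within this group enrichment was thus highest at one end. A group of 6 regions on chromosome 12, from 109661302 to 109701045, which includes the broadest region of all, was the only one of the 18 with no full-length peak in its span, against 14 and 18 del-cIDR peaks. The groups of chromosomes 6 and 12 were chosen after their values were seen. A 7 Mb block of chromosome 11 starting at 96 Mb held 19 of the regions and 7 broader full-length-only regions. The blocks of chromosome 17 from 25 to 29 Mb and from 34 to 38 Mb held 9 and 11 of the regions, against 6 and 2 broader full-length-only ones.

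Although no full-length peak overlapped them, over 50% of the regions had one nearby. The nearest full-length peak lay a median of 9224 bp away, with quartiles of 3328 and 25531.75 bp and a range of 11 to 639607 bp. It was within 1 kb at 101 regions (9.82%), within 10 kb at 534 (51.9%, exact 95% interval 48.8 to 55.0%) and within 100 kb at 973 (94.6%). The interval covers counting of regions only and takes them as independent. As 572 regions had another within 100 kb, it may be too narrow. Of the narrower del-cIDR-only regions 33.6% had a full-length peak within 10 kb, and of the broader full-length-only regions 34.7% had a del-cIDR peak at that distance. Full-length peaks lay on both sides within 10 kb at 125 regions (12.2%). A region held by both full-length lists was within 10 kb at 310 regions (30.2%). Within 10 kb the broader del-cIDR-only regions had a peak of the other genotype more often than either other set did, a difference over regions that was not tested.

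The nearest full-length peak belonged to a region of all 4 lists at 189 regions (18.4%), to a full-length-only region of both lists at 135 (13.1%) and to another combination at 704 (68.5%). A region of all 4 lists lay within 10 kb of 167 regions (16.2%), against 8.52% of narrower del-cIDR-only and 7.37% of broader full-length-only regions. The 5 regions nearest to one of both full-length lists were 21 to 85 bp from it. They lay at chr2:180996831-180997784, at chr17:35378983-35379900, chr17:74997157-74998028 and chr17:24896898-24898469, and at chr4:134652777-134654342. Their enrichment was 2.35-fold to 3.33-fold in replicate 1 and 2.30-fold to 4.16-fold in replicate 2. At these 5 a region called in both full-length lists began or ended within 85 bp of an edge.

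The 5 regions farthest from a region of both full-length lists lay 0.8 Mb or more from it. A region at chr3:135144416-135145694 was 1375275 bp away, had 3.85-fold and 4.46-fold enrichment and ranked 1495 and 1228. A region at chr15:41663309-41664182 was 1343669 bp away, with 3.12-fold and 4.11-fold. A pair, at chr7:120532567-120533366 and chr7:120539359-120540220, was 1054232 and 1047378 bp away. The region at chr17:75845063-75846035 was 834575 bp away, and also had the most distant single full-length peak, at 639607 bp. These 5 regions measured 800 to 1279 bp.

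**Figure D3:**
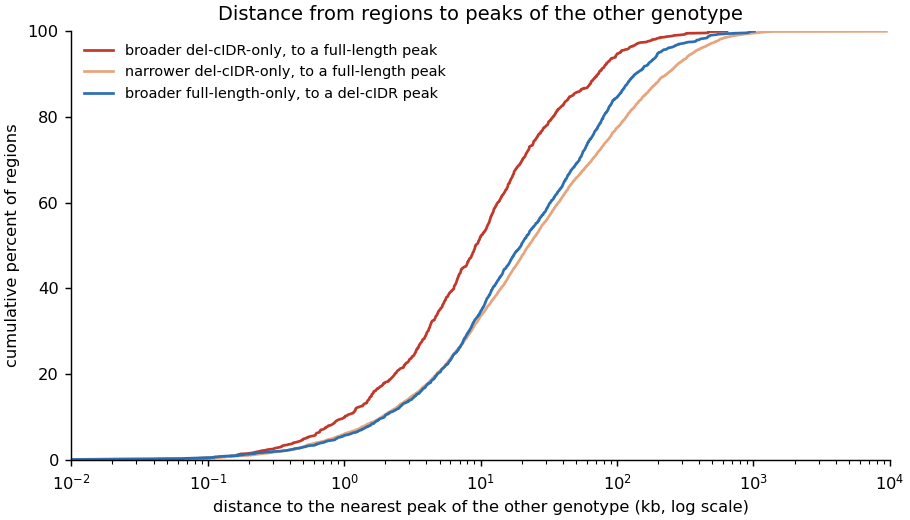
Lines give the cumulative percent of regions against the distance, in kb on a log scale, to the nearest peak of the other genotype. The line of the broader del-cIDR-only regions reached 51.9% at 10 kb, above the narrower del-cIDR-only (33.6%) and the broader full-length-only regions (34.7%).

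Beside the regions, outside their edges, del-cIDR peaks were denser than full-length peaks, and the ratio was lower in wider flanks. Within 10 kb there were 1915 and 2217 del-cIDR peaks and 741 and 657 full-length peaks. Per 10000 peaks of each list this was 1089 and 1177 in del-cIDR, against 373 and 395 in full-length lists, with means of 1133 ± 62.0 and 384 ± 15.8 (SD, n = 2 per genotype). The groups did not overlap, and the 2.95-fold difference reached p = 0.333 in a two-sided exact permutation test over libraries, the smallest p that 2 against 2 allows. Within 1 kb the ratio was 7.47, with means of 322 ± 20.8 and 43.1 ± 1.95, and within 100 kb it was 1.60, with 2752 ± 89.0 and 1720 ± 64.7. The rule did not count flanking peaks, but it left out any region that a full-length peak touched. Full-length peaks at the edges were thus limited by the choice, which bears most on the 1 kb flank. Flanking peaks also belong to the same contrast of genotypes, so the test over libraries is not independent of the choice.

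The ratio in flanks of a given size differed between the sets. Around the narrower del-cIDR-only regions the del-cIDR lists had 3.69 times the full-length density within 1 kb and 1.49 times within 10 kb, but 0.941 times within 50 kb and 0.815 times within 100 kb. Around the broader full-length-only regions the ratio was 0.0813 within 1 kb and 0.687 within 100 kb. Around the broader del-cIDR-only regions the del-cIDR density was thus still the higher one over the whole 100 kb flank. The outer part of that flank differed little. From 50 to 100 kb alone, peaks per 10000 numbered 594 and 623 in del-cIDR lists, against 565 and 587 in full-length lists. In all 4 lists the peaks in the 10 kb flanks of the broader del-cIDR-only regions had a lower median enrichment than their list. This was also so beside the narrower del-cIDR-only regions. Beside the broader del-cIDR-only regions the median was 2.60-fold and 2.60-fold in del-cIDR flanks against 3.17-fold and 3.16-fold in those lists, and 2.68-fold and 2.60-fold in full-length flanks against 3.80-fold and 3.60-fold. Differences between the sets were not tested.

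**Figure D4:**
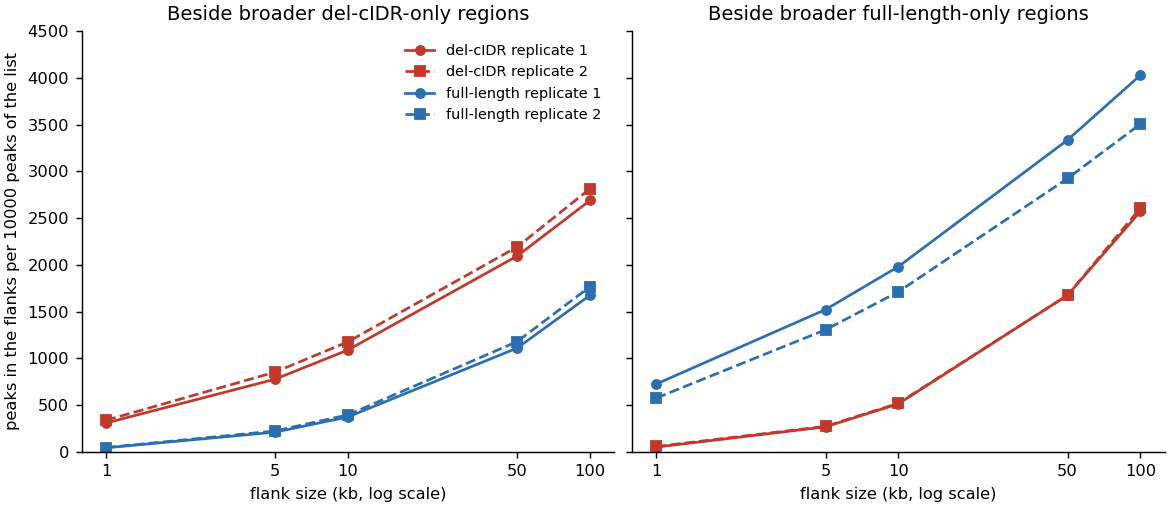
Points give the number of peaks beside the regions per 10000 peaks of each list, for flanks of 1 to 100 kb on a log scale, around broader del-cIDR-only (left) and broader full-length-only regions (right). Red lines are the del-cIDR and blue lines the full-length libraries. On the left both del-cIDR libraries lie above both full-length libraries at every flank size, at 1089 and 1177 against 373 and 395 for 10 kb.

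On a larger scale, windows of 1 Mb were tested with limma on the summits outside the regions, on a log2 scale of summits per 10000 with a pseudocount of 0.5. Of 2267 windows, 395 had more del-cIDR and 298 more full-length peaks (Benjamini-Hochberg adjusted p under 0.05), a background of 17.4% and 13.1%, or 30.6% in either direction. The regions lay in 476 of the windows, of which 147 (30.9%) were called for del-cIDR and 38 (7.98%) for full-length. By region, 414 of 1027 (40.3%) lay in windows called for del-cIDR and 59 (5.74%) in windows called for full-length. The rule chose the regions on the same contrast, so these shares describe where they lie and support nothing further. A fit that leaves a single library in a genotype takes its spread from the other genotype alone. Calls of such fits therefore cannot show which libraries the main calls rest on. The median log2 difference over windows was 0.14 without del-cIDR replicate 1 and 0.21 without replicate 2. It was 0.29 without full-length replicate 1 and 0.17 without replicate 2.

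Over all windows the median log2 difference, del-cIDR over full-length, was 0.20, and log2 values here are relative to it, while SE and adjusted p belong to the difference before this subtraction. Windows with 5 or more regions numbered 47, held 310 of the regions and had a median of 0.74, with 29 called for del-cIDR and 1 for full-length. Windows with a single region had a median of 0.10 and those with none -0.11. In the windows with the most regions the remaining peaks varied in direction. The window of chromosome 11 from 120 to 121 Mb held 15 regions, yet its other peaks numbered 42 and 52 in del-cIDR against 60 and 49 in full-length lists (log2 -0.32 ± 0.15 SE, limma adjusted p = 0.605). Chromosome 5 from 110 to 111 Mb held 10 regions and had 38 and 39 other del-cIDR against 66 and 54 full-length peaks, a difference called for full-length (log2 -0.73 ± 0.15 SE, limma adjusted p = 0.0387). Summits inside the regions were left out, 1263 and 1180 in del-cIDR replicates 1 and 2, and by the rule none in full-length lists. This lowers the del-cIDR counts of windows with many regions. With those summits counted, windows holding a region had 178 calls for del-cIDR and 33 for full-length, against 147 and 38. The windows of chromosomes 11 and 5 thus held many full-length peaks, but only 1 of the 47 windows with 5 or more regions was called for full-length.

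Other windows leaned to del-cIDR in their remaining peaks too. Chromosome 7 from 79 to 80 Mb held 12 regions, with 42 and 45 other del-cIDR against 20 and 19 full-length peaks (log2 1.02 ± 0.18 SE, limma adjusted p = 0.00726). Chromosome 10 from 80 to 81 Mb held 11, with 74 and 87 against 35 and 39 (log2 1.00 ± 0.18 SE, limma adjusted p = 0.0080). The largest difference among the 16 windows with 7 or more regions was at 115 to 116 Mb of chromosome 11, with 45 and 37 against 13 and 8 (log2 1.80 ± 0.25 SE, limma adjusted p = 0.00460). In the window of chromosome 19 from 6 to 7 Mb the other peaks numbered 35 and 49 in del-cIDR against 13 and 13 in full-length lists.

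**Figure D5:**
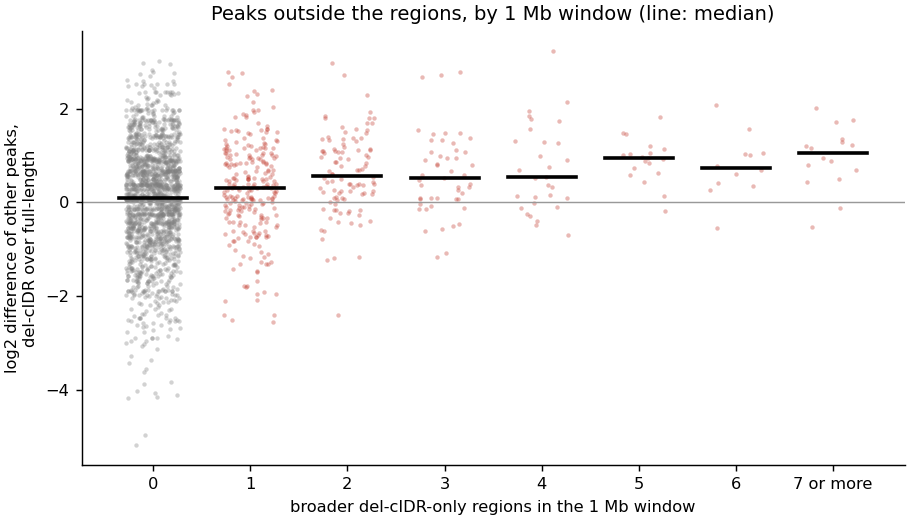
Each point is a 1 Mb window, placed by the number of broader del-cIDR-only regions it holds and by the log2 difference, del-cIDR over full-length, of the peaks outside these regions, before subtracting the median window of 0.20. Black lines are medians, at 0.10 for windows with no region and 1.05 for windows with 7 or more.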

How the data were processed

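Peak lists of 4 immunoprecipitates were used, 1 list per library. Tools listed per the submitters' processing notes are MACS2, UMI-tools, STAR and cutadapt, and the listed build is GRCm39. Settings, and whether inputs served as control, are not stated there. The authors deposited for each peak a fold enrichment (ratio), a −log10 p-value and a −log10 q-value, a score derived from the −log10 q, and a summit offset in bases. File names give wild type or knock-in. The knock-in was read as del-cIDR, since no other edited genotype is labelled.

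Peaks were merged, classed and measured in Python 3.11.15 with pandas 2.3.3 and scipy 1.17.1, and windows with 4 or more summits were tested in limma 3.58.1 (R 4.3.3). Ranks follow −log10 q. Merging and the window test were tested on simulated data. Depth is unknown. The regions, the lists and the blocks of chromosomes 11 and 17 were chosen with earlier results of these data known. Regions named in the text are the 10 broadest, the 10 best by mean rank, the 5 highest by the lower enrichment, the 5 nearest to and 5 farthest from a region of both full-length lists, 3 densest groups, and those at the width limit. Gene lists fixed with that rule needed a GRCm39 annotation and were not analysed here.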

Additional observations from a re-analysis of the deposited data

How the results depend on the processing

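The number of broader del-cIDR-only regions depended most on enrichment and on the width limit. Using only peaks of at least 4-fold enrichment, full-length peaks included, gave 40 regions, which need not all be among the 1028, and limits of 600 and 1000 bp gave 2107 and 541. Leaving out each library in turn gave 507 to 1113. Other settings gave 927 to 1273. The percent with a full-length peak within the distance was 9.82 at 1 kb, 34.8 at 5 kb, 85.6 at 50 kb and 94.6 at 100 kb. The excess of del-cIDR peaks in the flanks kept its direction in all 11 alternatives, and the exact permutation test over libraries could not go below 0.333 in any of them. Window calls without scaling to list length were 355 in all, 196 for del-cIDR and 159 for full-length. Leaving out each library gave 227 to 897 calls, 70 to 554 for del-cIDR and 149 to 357 for full-length. The replicate block gave 895 calls, 533 and 362. The labels give same-numbered replicates nothing in common but the number. Deviations of replicate 1 correlated at -0.010 between genotypes over 2267 windows. With so few replicates, this value cannot show whether same-numbered libraries were handled together. The share of regions in annotated genes was not run, as no GRCm39 annotation was used.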

Other observations

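Broad signal in the del-cIDR lists was also present at regions that the rule leaves out. Both del-cIDR lists and exactly 1 full-length list held a peak at 140 regions of 800 bp or more, and 83 regions of that width were held by a single del-cIDR list and no full-length list. One of the 1028 broader del-cIDR-only regions lay on an unplaced scaffold, at positions 57864 to 58692. Its enrichment was 2.42-fold in replicate 1 and 2.44-fold in replicate 2, and a full-length peak lay 3677 bp away.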
